A study of Mus musculus with 12 samples.

Results

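Focal adhesions are protein assemblies at which integrins in the plasma membrane hold on to the extracellular matrix outside the cell and to actin filaments inside it. Talin and its partner adaptors bind the integrin tails, LIM-domain and scaffold proteins pass on signals, and alpha-actinin and non-muscle myosin bundle and pull the actin filaments. In the testis, spermatogonia lie on the basement membrane of the seminiferous tubule, and integrins are among the proteins that hold them there.

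The values below describe 48 genes annotated to the focal adhesion in the mouse line GC1, an immortalised spermatogonial line. RNA was sequenced from 12 libraries labelled 24 h, 3 in each of 4 groups: Ythdf2 knockout cells overexpressing Setdb1 (Ythdf2-koOE-setdb1), Ythdf2 knockout cells with an overexpression control (Ythdf2-ko-OE-CTR), Ythdf2 knockout cells without either (Ythdf2-ko), and wild-type cells (WT). YTHDF2 is a reader of m6A, a methyl mark on RNA, and SETDB1 is a histone H3 lysine 9 methyltransferase, and the study asks how the pair bear on DNA damage repair. The Ythdf2 deletion is thus carried by 9 of the 12 libraries, including those of the overexpression control. The labels do not say whether the knockout line is a single clone, how Setdb1 or the control was delivered, or whether the libraries of a group came from separate cultures, so p-values measure only the spread between these libraries, which may be technical.

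The 48 genes were found by annotation and a floor on their level, with earlier results of these data known. The table holds 2281 genes, of which 58 carried the Gene Ontology term for focal adhesion. Itgb4, Mapre1 and Mapre2 carried an excluded term for cell division, DNA repair, chromatin organization, RNA splicing or autophagy, and Itgb7 was left out by name. Of these, Itgb4 and Itgb7 were lower in every knockout library than in wild type, Mapre2 was higher, and Mapre1 overlapped. Of the others, 6 genes, among them Lcp1 and Itgb8, did not reach 1 FPKM (fragments counted per kilobase of transcript and scaled to the mapped fragments of each library) in 3 libraries. Of the 48 genes left, 43 were at 1 FPKM or more in all 12 libraries. The 5 others were Tns4 in 3 libraries, Shroom4 in 5, Parvb in 8, and Nphs1 and Flrt3 in 9 each. Tns4 passed only through the wild-type libraries, where it was highest. Parvb passed only through libraries of Ythdf2 knockout cells, where it was higher than in wild type. Shroom4 would not have passed without the Setdb1-overexpressing libraries, where its mean was highest. The annotation could be used for 1659 genes. A further 33 genes that the submitters' own term list places at the focal adhesion, among them Vcl (vinculin), Ptk2 (focal adhesion kinase), Ilk, Itga5 and Itgb3, are therefore not among the 48.

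The table is a preselected set: the authors' deposited table marks all 2281 genes as significant in a comparison that its columns do not name. Each test here was fitted with limma over the 2063 genes that reached 1 FPKM in at least 3 libraries, on log2(FPKM + 1), and a gene was called at an adjusted p (Benjamini-Hochberg, over all 2063) under 0.05. Log2 fold changes are differences on that scale, which understates the change of low genes. Depth is unknown, since no counts were used. Ythdf2 itself had 4.67, 4.99 and 4.23 FPKM in Setdb1-overexpressing cells, 6.14, 6.24 and 6.04 in the overexpression control, 5.79, 6.07 and 6.28 in knockout cells, and 8.51, 9.33 and 9.15 in wild-type cells. Its transcript was thus lower in each knockout library than in each wild-type library, and not absent, and the labels do not say which stretch of the gene was altered. Of 15 spermatogonial markers only Etv5 and Bcl6b were in the table, so the labelled cell type could not be checked further. Their summed level ran from 3.88 to 7.08 FPKM over the 12 libraries. It was 3.98 to 4.56 FPKM in knockout libraries and 6.65 to 7.08 FPKM in wild-type libraries. Both genes were lower in every knockout library than in every wild-type library.

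In 4 libraries, knockout 1 and 2 and wild type 2 and 3, blood transcripts stood out. The mean of 4 haemoglobin genes was 45.1 to 150.3 FPKM there, against 0.0307 to 1.28 FPKM in the 8 other libraries. Marker genes of other cell types also moved with the knockout: the summed level of 4 epithelial markers (Krt8, Krt19, Krt14 and Elf3) was 347 to 356 FPKM in knockout libraries and 838 to 871 FPKM in wild-type libraries. The 4 Sertoli cell markers in the table did not move together: Clu was at 65.3 to 81.2 FPKM in knockout libraries and 143.6 to 145.7 FPKM in wild-type libraries and Sox9 was also lower in knockout libraries, while Inhbb, at 10.4 to 10.8 FPKM in knockout libraries and 3.23 to 3.34 FPKM in wild-type libraries, and Gata4 were higher. The part of either difference in the results was not tested, and in bulk RNA fewer cells of a type and less RNA per cell cannot be told apart.

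As a group, the 48 genes leaned upward with the knockout and again with Setdb1 overexpression over its control, whose summed level lay below that of the unmodified knockout. Their summed level was 1025 to 1030 FPKM in Setdb1-overexpressing cells, 939 to 947 FPKM in the overexpression control, 957 to 967 FPKM in knockout cells and 903 to 907 FPKM in wild-type cells. The sum was also taken as a share of the table's total in each library. It was 1.26% to 1.30%, 1.16% to 1.23%, 1.20% to 1.26% and 1.16% to 1.19% in the same order. On that measure the control overlapped the knockout and the wild type, and the knockout overlapped Setdb1 overexpression. A few abundant genes weigh most in this sum. The most abundant were Myh9 (non-muscle myosin heavy chain), Tln1 (talin), Actn1 (alpha-actinin), Anxa6 (annexin A6, which binds membranes in the presence of calcium) and Srp68 (a subunit of the signal recognition particle).

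In knockout against wild-type cells, 25 of the 48 genes rose (52.1%) and 12 fell (25%). The rises include Parvb and Flrt3 and the falls Tns4, whose direction the filter on levels in part favoured. Among all tested genes 37.8% rose, 39.5% fell and 77.3% moved in either direction, so the share of focal adhesion genes called, 77.1%, was near the background, while rises took a larger and falls a smaller share of them. The median log2 fold change was 0.14 over the 48 genes and -0.01 over all tested genes. The knockout and wild-type libraries did not overlap for 34 of the 48 genes, against 79.9% of all tested genes.

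The overexpression control against the unmodified knockout gave 0 rises and 2 falls in limma, Bcar1 and Limk1. At an unadjusted p under 0.05, 3 of the 48 genes were higher (6.25%) and 8 lower (16.7%) in the control, against 10.7% and 13.8% of all tested genes. Of all tested genes 3.64% rose and 5.04% fell at the adjusted threshold, 8.68% in all. The control and knockout libraries did not overlap for 13 of the 48 genes, against 30.0% of all tested genes. The median log2 fold change was -0.04 over the 48 genes and 0.00 over all tested genes.

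Setdb1 overexpression against its control gave 28 rises (58.3%) and 9 falls (18.8%) among the 48 genes. The rises include Shroom4, whose direction the filter on levels in part favoured. Of all tested genes 36.1% rose and 31.8% fell, 67.9% in all, against 77.1% of the focal adhesion genes. The Setdb1-overexpressing and control libraries did not overlap for 38 of the 48 genes, against 73.0% of all tested genes. The median log2 fold change was 0.12 over the 48 genes and 0.02 over all tested genes.

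**Figure D1:**
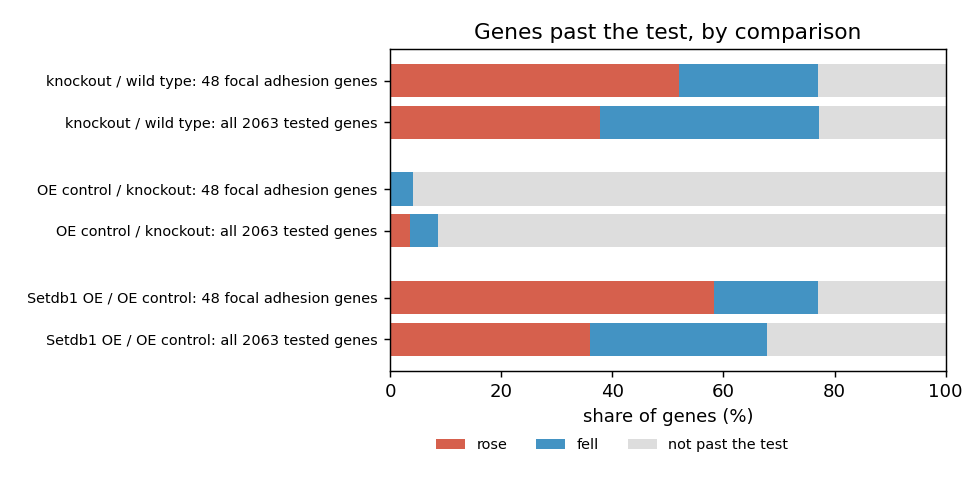
Share of genes (x axis, %) that rose, fell or did not pass the limma test (adjusted p under 0.05) in each of 3 comparisons, for the 48 focal adhesion genes and for all 2063 tested genes. In both outer comparisons the red part for rises is longer for the focal adhesion genes, at 52.1% against 37.8% in knockout over wild type and 58.3% against 36.1% in Setdb1 overexpression over its control.

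Because knockout against wild type and Setdb1 overexpression against its control share no library, the calls of the same gene can be set side by side. The calls are still linked, since both tests of a gene use 1 estimate of its spread over all 12 libraries. Of the 48 genes, 17 (35.4%) rose in both comparisons, as did 289 of the 2063 tested genes (14.0%). Those 17 make up 68.0% of the 25 focal adhesion genes that rose in the knockout, and 289 make up 37.1% of the 779 tested genes that did. Whatever their knockout call, 58.3% of the 48 genes and 36.1% of all tested genes rose with Setdb1 overexpression. The number that rose in both thus follows in large part from the share of rises in each comparison. Whether the rises go together was not tested. The 17 genes are Actn1, Palld and Flii of the actin proteins, Bcar1, Parva, Rsu1 and Tns1 of the integrin-proximal adaptors, Lasp1, Lima1, Peak1, Ppfia1, Tgfb1i1, Trip6 and Wtip of the scaffolds, and Armc5, Keap1 and Tada1, which are known mainly for work elsewhere in the cell. Without the 4 libraries with blood transcripts, 11 of the 48 genes (22.9%) and 202 of the tested genes (9.79%) rose in both. The 6 lost were Armc5, Keap1, Lasp1, Peak1, Tgfb1i1 and Wtip, and Tgfb1i1 also lost its call with Setdb1 overexpression in 4 of 6 fits that left out 1 library. Fewer genes moved in opposite directions. Flrt2, Klf11, Tln1 and Ubox5 rose in the knockout and fell with Setdb1 overexpression (8.33% of the 48 genes, against 11.2% of all tested genes). Arhgap31, Atat1, Lims1 and Tns4 fell in the knockout and rose with Setdb1 overexpression (8.33% against 13.3%). Afap1, Prune1 and Ptpn12 fell in both (6.25% against 12.5%).

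**Figure D2:**
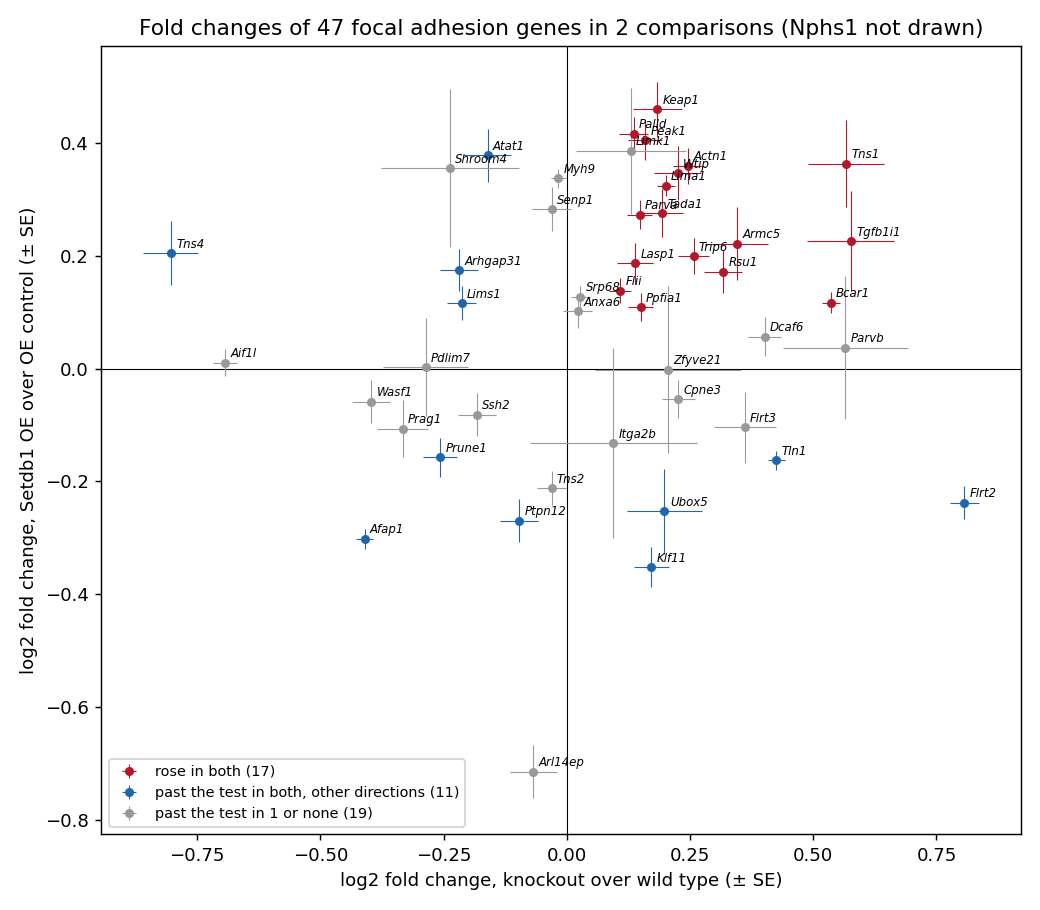
Log2 fold change on the log2(FPKM + 1) scale (± SE) of knockout over wild type (x axis) and of Setdb1 overexpression over its control (y axis) for 47 focal adhesion genes. Nphs1, whose libraries disagree within groups, is not drawn. The 17 genes that rose in both comparisons fill the upper right, Flrt2 and Tln1 lie at the lower right, and Tns4 and Aif1l at the far left.

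The surface receptors among the 48 were few, and each behaved in its own way. Flrt2 encodes a leucine-rich repeat transmembrane protein that acts in cell adhesion and as a ligand for Unc5 receptors. It had 7.70, 7.52 and 7.21 FPKM in Setdb1-overexpressing cells, 8.95, 9.17 and 8.86 in the overexpression control, 8.88, 9.15 and 9.15 in knockout cells, and 4.67, 4.84 and 4.75 in wild-type cells. No knockout library overlapped a wild-type library, and the Setdb1-overexpressing libraries lay between these sets. Its log2 fold change of 0.81 (SE 0.03, adjusted p = 4.86e-09) in knockout over wild type was the largest rise among the 48 genes on the log2(FPKM + 1) scale, and it fell by 0.24 with Setdb1 overexpression (adjusted p = 4.93e-05). Its relative Flrt3 rose by 0.36 in the knockout (adjusted p = 0.000396), at 1.42 ± 0.0664 FPKM in knockout cells and 0.885 ± 0.114 FPKM in wild-type cells (SD, n = 3 each), and did not pass the test with Setdb1 overexpression. Its wild-type mean was under 1 FPKM, so it passed the filter mainly through knockout-derived libraries, which in part favoured a rise.

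Itga2b, the platelet integrin alpha chain, was the only integrin subunit among the 48. It had 1.30, 1.43 and 1.28 FPKM in Setdb1-overexpressing cells, 1.66, 1.50 and 1.52 in the overexpression control, 2.99, 2.88 and 1.72 in knockout cells, and 1.51, 2.58 and 2.85 in wild-type cells. It passed no test, with an adjusted p of 0.619 in knockout over wild type. The 4 libraries with haemoglobin transcripts held its highest levels, 2.58 to 2.99 FPKM, against 1.28 to 1.72 FPKM in the 8 others. Pf4, another platelet gene, was at 4.01 to 6.18 FPKM in the same 4 libraries and at 0.143 FPKM or less elsewhere. Nphs1, which encodes nephrin, the slit diaphragm protein of kidney podocytes, was uneven within groups: 4.88, 3.78 and 2.33 FPKM in Setdb1-overexpressing cells, 3.11, 0.522 and 0.406 in the overexpression control, 2.43, 4.12 and 4.71 in knockout cells, and 0.730, 3.77 and 2.23 in wild-type cells. The groups overlapped in every comparison. Its call as risen with Setdb1 overexpression (log2 fold change 1.14, SE 0.46, adjusted p = 0.0493) was lost in 4 of 6 fits that left out 1 library of either group, with an adjusted p of up to 0.162.

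**Figure D3:**
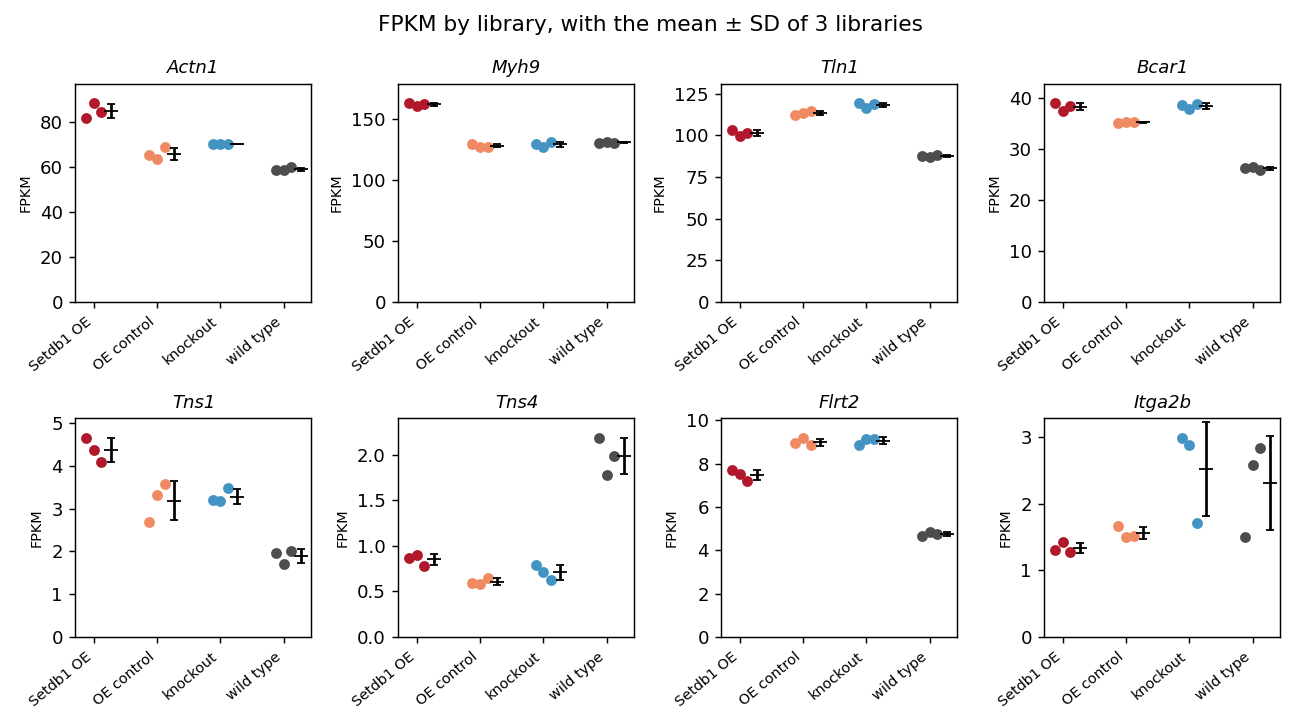
FPKM (y axis, linear, from 0) of 8 focal adhesion genes in each library, with the mean ± SD of the 3 libraries of a group. Actn1 and Tns1 step up in the knockout and again with Setdb1 overexpression, Myh9 is higher only in the Setdb1-overexpressing libraries, Tln1 and Flrt2 are highest in the overexpression control and knockout libraries, Tns4 is highest in wild type, and Itga2b is high in 2 knockout and 2 wild-type libraries.

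Among the 9 adaptors that sit next to the integrin tail, 6 rose and 2 fell in the knockout, and 6 rose and 2 fell with Setdb1 overexpression, while 77.3% and 67.9% of all tested genes were called in these comparisons. Tln1 encodes talin, which binds the integrin beta tail and switches integrins on. It had 103, 99.6 and 101.2 FPKM in Setdb1-overexpressing cells, 112, 114 and 114 in the overexpression control, 119, 117 and 119 in knockout cells, and 87.7, 87.3 and 88.2 in wild-type cells. The knockout libraries were all above the wild-type ones, and the Setdb1-overexpressing libraries were all below those of the control. Talin thus rose by a log2 fold change of 0.43 in the knockout (SE 0.02, adjusted p = 8.94e-09) and fell by 0.16 with Setdb1 overexpression (SE 0.02, adjusted p = 1.47e-05).

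Bcar1 encodes p130Cas, a docking protein that is phosphorylated when the adhesion is stretched. Its levels were 38.9, 37.5 and 38.5 FPKM in Setdb1-overexpressing cells, 35.2, 35.3 and 35.3 in the overexpression control, 38.6, 37.9 and 38.9 in knockout cells, and 26.3, 26.4 and 25.9 in wild-type cells. The wild-type libraries were the lowest by a wide margin and the control libraries lay just under the knockout ones. The Setdb1-overexpressing libraries overlapped those of the knockout. Bcar1 was the adaptor that moved in all 3 comparisons: by 0.54 in knockout over wild type (adjusted p = 3.38e-09), by -0.12 in the control over the knockout (adjusted p = 0.00312) and by 0.12 with Setdb1 overexpression over the control (adjusted p = 0.000274).

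The tensins, which tie integrin tails to actin, did not move together. Tns1 had 4.65, 4.39 and 4.10 FPKM in Setdb1-overexpressing cells, 2.69, 3.31 and 3.58 in the overexpression control, 3.20, 3.17 and 3.48 in knockout cells, and 1.96, 1.72 and 2.0 in wild-type cells. It rose by 0.57 in the knockout (adjusted p = 7.31e-05) and by 0.36 with Setdb1 overexpression (adjusted p = 0.00195). Tns4, a short tensin without the actin-binding region, ran the other way: 0.869, 0.898 and 0.784 FPKM in Setdb1-overexpressing cells, 0.590, 0.578 and 0.646 in the overexpression control, 0.785, 0.715 and 0.626 in knockout cells, and 2.18, 1.78 and 1.99 in wild-type cells. Its log2 fold change in knockout over wild type was -0.80 (SE 0.06, adjusted p = 4.69e-07), but it entered the test only through its wild-type level, so a fall was in part fixed by the filter. It was higher by 0.21 with Setdb1 overexpression (adjusted p = 0.00792), at levels still below every wild-type library. Tns2 was not called in the knockout (log2 fold change -0.03, adjusted p = 0.367) and fell by 0.21 with Setdb1 overexpression (adjusted p = 0.000137), at 30.5 ± 0.83 FPKM against 35.5 ± 1.03 FPKM in the control (SD, n = 3 each).

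The parvins, PINCH and their partner Rsu1 belong to the complex around integrin-linked kinase. Parva, alpha-parvin, had 20.0, 19.7 and 19.3 FPKM in Setdb1-overexpressing cells, 15.9, 16.3 and 16.1 in the overexpression control, 15.9, 15.2 and 15.6 in knockout cells, and 13.9, 14.3 and 13.6 in wild-type cells. It rose by 0.15 in the knockout (adjusted p = 0.000344) and by 0.27 with Setdb1 overexpression (adjusted p = 5.95e-06), with no overlap of libraries in either. Rsu1, which binds PINCH, rose by 0.32 and by 0.17 in the same comparisons (adjusted p = 2.56e-05 and 0.00222). Lims1, which encodes PINCH itself, fell by 0.21 in the knockout (adjusted p = 7.63e-05) and rose by 0.12 with Setdb1 overexpression (adjusted p = 0.00532). Parvb, beta-parvin, was low and variable, at 1.84, 1.52 and 0.938 FPKM in knockout cells and 0.421, 0.801 and 0.673 FPKM in wild-type cells. It rose by 0.57 in the knockout (adjusted p = 0.00206) and did not pass the test in the other comparisons. All its wild-type libraries were under 1 FPKM, so it entered the test only through knockout-derived libraries. A rise was thus in part fixed by the filter.

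Of the 10 LIM-domain and signalling scaffolds, 7 rose and 2 fell in the knockout, and 7 rose and 0 fell with Setdb1 overexpression in limma, beside 37.8% risen and 39.5% fallen in the knockout and 36.1% risen and 31.8% fallen with Setdb1 overexpression among all tested genes. Both counts came from the same 7 genes: Lasp1, Lima1, Peak1, Ppfia1, Tgfb1i1, Trip6 and Wtip. At an unadjusted p under 0.05 the counts with Setdb1 overexpression were also 7 higher and 0 lower.

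Lima1 encodes EPLIN, a LIM protein that cross-links actin filaments. It had 53.1, 52.4 and 53.1 FPKM in Setdb1-overexpressing cells, 42.6, 41.5 and 42.0 in the overexpression control, 43.6, 42.1 and 42.7 in knockout cells, and 37.4, 36.6 and 37.3 in wild-type cells. The 4 groups formed 3 levels, with the control and the knockout overlapping. It rose by 0.20 in the knockout (adjusted p = 3.9e-06) and by 0.32 with Setdb1 overexpression (adjusted p = 2.05e-07). Trip6, a zyxin-family protein, had 42.4, 44.1 and 45.3 FPKM in Setdb1-overexpressing cells, 38.0, 38.1 and 38.3 in the overexpression control, 40.8, 39.7 and 39.4 in knockout cells, and 34.9, 32.7 and 32.2 in wild-type cells. It rose by 0.26 in the knockout (adjusted p = 3.48e-05) and by 0.20 with Setdb1 overexpression (adjusted p = 0.000279). Its control libraries lay just below those of the knockout, a difference that did not pass the test (adjusted p = 0.24).

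Tgfb1i1 encodes Hic-5, a paxillin relative. It averaged 4.94 ± 0.559 FPKM in Setdb1-overexpressing cells, 4.08 ± 0.549 in the overexpression control, 4.22 ± 0.324 in knockout cells and 2.50 ± 0.0769 in wild-type cells (SD, n = 3 each). It rose by 0.58 in the knockout (adjusted p = 0.000159). Its rise of 0.23 with Setdb1 overexpression (adjusted p = 0.0419) came from overlapping libraries and was lost in 4 of 6 fits that left out 1 library of either group, with an adjusted p of up to 0.160. Peak1, a pseudokinase scaffold, had 8.21, 8.07 and 8.21 FPKM in Setdb1-overexpressing cells, 6.15, 5.92 and 5.70 in the overexpression control, 6.38, 6.05 and 6.42 in knockout cells, and 5.70, 5.33 and 5.54 in wild-type cells. Its step was larger with Setdb1 overexpression (0.40, adjusted p = 3.36e-06) than in the knockout (0.16, adjusted p = 0.00177), and the difference between the steps was not tested. Its relative Prag1 fell by 0.33 in the knockout (adjusted p = 0.000163), at 1.44 ± 0.0443 FPKM in knockout cells and 2.08 ± 0.217 FPKM in wild-type cells (SD, n = 3 each).

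The other scaffolds made smaller steps. Wtip, a LIM protein of the Ajuba family, rose by 0.23 and 0.35 in the knockout and with Setdb1 overexpression (adjusted p = 0.00142 and 0.000104), with a knockout value of 0.11 (adjusted p = 0.0865) without the libraries with blood transcripts. Lasp1, a LIM and SH3 protein that binds actin, rose by 0.14 and 0.19 (adjusted p = 0.00537 and 0.0011), and its knockout value was 0.02 (adjusted p = 0.718) without the 4 libraries with blood transcripts. Ppfia1, liprin-alpha-1, rose by 0.15 and 0.11 (adjusted p = 0.000261 and 0.00272). Pdlim7, a PDZ and LIM protein on actin fibres, fell by 0.29 in the knockout with overlapping libraries (adjusted p = 0.0115). Zfyve21, a FYVE-domain protein of focal adhesions, passed no test, and library 2 was the highest in each of the 4 groups, at 9.25, 9.56, 6.01 and 5.68 FPKM in Setdb1-overexpressing, control, knockout and wild-type cells.

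Promoter letters were read for the CArG box, the site bound by serum response factor, which with its actin-sensing partner MRTF drives many cytoskeletal genes, and for the motif of TEAD, the DNA-binding partner of YAP. RefSeq promoter windows (build GRCm38.p6, 250 bases before to 50 after a start) were found for 37 of the 48 genes. The CArG box, written CC, then 6 letters that are each A or T, then GG, was present in 3 of the 37 genes (8.11%), against 1.82% of 1652 tested genes and 1.81% of 27025 genes with a window. The 3 genes are Lima1, Trip6 and Rsu1, all of which rose in both comparisons, and their sites are shown because they are the matches behind that count, 5′ to 3′ on the gene's strand, with the box in capitals. The Lima1 stretch is chr15:99820150-99820249, minus strand, with the box beginning 47 bases before the start. The Trip6 stretch is chr5:137314221-137314250, minus strand, and that of Rsu1 is chr2:13271368-13271397, minus strand, with the boxes 1 and 28 bases after the start.
Lima1: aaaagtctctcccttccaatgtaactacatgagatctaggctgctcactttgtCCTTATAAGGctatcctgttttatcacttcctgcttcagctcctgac
Trip6: gtggtcgtctCCAAAATTGGggaggaaggg
Rsu1: aaacagttctCCTAATTTGGgaagtgtcag

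The TEAD letters (GGAATG, or CATTCC on the other strand) were present in 5 of the 37 genes (13.5%), against 13.6% of tested genes and 16.6% of all genes with a window, so that share was at the background. Wtip alone held 4 matches, in the stretch chr7:34133269-34133518 on the minus strand, shown with the matches in capitals.
Wtip: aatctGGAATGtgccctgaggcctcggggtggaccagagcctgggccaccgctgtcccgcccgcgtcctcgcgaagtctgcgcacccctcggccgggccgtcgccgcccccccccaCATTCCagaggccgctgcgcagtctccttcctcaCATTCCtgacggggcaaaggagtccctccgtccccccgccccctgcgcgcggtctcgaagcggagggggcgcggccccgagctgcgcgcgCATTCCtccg
The AP-1 letters (TGANTCA) were present in 3 of the 37 genes (8.11%, against 5.87% of tested genes), the GC box (GGGCGG or CCGCCC) in 26 (70.3% against 72.9%) and the TATA box (TATAAA or TTTATA) in 4 (10.8% against 9.69%). All 5 motifs were searched on both strands, overlaps between different motifs were not removed, and a match is a run of letters and not a bound site.

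Of the 9 actin and myosin proteins, 3 rose and 3 fell in the knockout, and 6 rose and 1 fell with Setdb1 overexpression, against the same 77.3% and 67.9% called among all tested genes. Actn1, alpha-actinin, which cross-links actin filaments and binds vinculin and integrin tails, had 81.9, 88.1 and 84.1 FPKM in Setdb1-overexpressing cells, 65.2, 63.4 and 68.7 in the overexpression control, 70.0, 70.2 and 70.4 in knockout cells, and 58.5, 58.6 and 59.8 in wild-type cells. The Setdb1-overexpressing libraries were the highest and the wild-type libraries the lowest of the 12. Actn1 rose by 0.25 in the knockout (SE 0.03, adjusted p = 4.66e-05) and by 0.36 with Setdb1 overexpression (SE 0.03, adjusted p = 4.23e-06). Palld encodes palladin, a scaffold of actin bundles, and had 11.3, 11.1 and 11.3 FPKM in Setdb1-overexpressing cells, 8.04, 8.09 and 8.38 in the overexpression control, 8.30, 8.21 and 8.04 in knockout cells, and 7.04, 7.51 and 7.53 in wild-type cells. It rose by 0.14 in the knockout (adjusted p = 0.0019) and by 0.42 with Setdb1 overexpression (adjusted p = 9.69e-07).

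Myh9, the heavy chain of non-muscle myosin IIA, had 162.8, 160.9 and 162.6 FPKM in Setdb1-overexpressing cells, 129.7, 127.2 and 127.5 in the overexpression control, 129.8, 126.9 and 131.3 in knockout cells, and 130.5, 131.3 and 130.6 in wild-type cells. The 9 libraries without Setdb1 overexpression formed a single band, and the 3 with it lay above that band. Myh9 rose by 0.34 with Setdb1 overexpression (SE 0.02, adjusted p = 5.68e-08) and was not called in the knockout (-0.02, adjusted p = 0.356). Anxa6 likewise passed the test with Setdb1 overexpression, by 0.10 (adjusted p = 0.0111), and not in the knockout (0.02, adjusted p = 0.5). Flii, a gelsolin-family protein, rose by 0.11 in the knockout and by 0.14 with Setdb1 overexpression (adjusted p = 0.00107 and 0.000255).

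The 3 actin proteins that fell in the knockout did not share a course afterwards. Aif1l, an actin-bundling relative of the macrophage protein AIF1, had 26.0, 25.7 and 25.9 FPKM in Setdb1-overexpressing cells, 25.6, 25.1 and 26.4 in the overexpression control, 25.8, 26.5 and 25.4 in knockout cells, and 42.7, 41.6 and 43.1 in wild-type cells. All 9 knockout-derived libraries lay within 25.1 to 26.5 FPKM. Aif1l fell by 0.69 in the knockout (SE 0.02, adjusted p = 3.38e-09) and had a log2 fold change of 0.01 with Setdb1 overexpression (SE 0.02, adjusted p = 0.704). Wasf1, a WAVE-complex protein that turns on branched actin assembly, fell by 0.40 in the knockout (adjusted p = 6.32e-06) and did not pass the test with Setdb1 overexpression (-0.06, adjusted p = 0.203). Afap1, an actin cross-linker that binds the kinase Src, had 17.7, 17.4 and 17.7 FPKM in Setdb1-overexpressing cells, 21.9, 22.0 and 21.8 in the overexpression control, 21.1, 21.3 and 21.5 in knockout cells, and 29.1, 28.5 and 28.4 in wild-type cells. It fell in both comparisons, by 0.41 (adjusted p = 1.59e-08) and by 0.30 (adjusted p = 2.53e-07), and the Setdb1-overexpressing libraries were the lowest of all. Shroom4, an actin-binding protein that reached 1 FPKM in 5 libraries, was called as risen by 0.36 with Setdb1 overexpression from overlapping libraries (adjusted p = 0.0439), and the call was lost in 4 of 6 fits that left out 1 library of either group. Every Setdb1-overexpressing library was at 1 FPKM or more, and too few others were for Shroom4 to pass the filter without them. A rise was thus in part fixed by the filter.

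Among the 6 enzymes and regulators, 1 rose and 4 fell in the knockout, and 3 rose and 1 fell with Setdb1 overexpression, where 77.3% and 67.9% of all tested genes were called. Limk1, the kinase that phosphorylates cofilin, had 6.46, 8.41 and 6.45 FPKM in Setdb1-overexpressing cells, 5.26, 4.92 and 5.32 in the overexpression control, 7.64, 7.61 and 7.13 in knockout cells, and 5.99, 6.17 and 8.21 in wild-type cells. The control libraries were the lowest of the 12. Limk1 fell by 0.46 in the control over the knockout (SE 0.11, adjusted p = 0.0338) and rose by 0.39 with Setdb1 overexpression over that control (adjusted p = 0.0108). These comparisons share the control libraries, and the fall was lost in each of 6 fits that left out 1 library of either group, with adjusted p from 0.0585 to 0.101. Ssh2, a phosphatase that acts on cofilin in the opposite direction, fell by 0.18 in the knockout (adjusted p = 0.00149).

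Atat1, the acetyltransferase of alpha-tubulin, had 4.35, 3.82 and 4.23 FPKM in Setdb1-overexpressing cells, 2.90, 2.90 and 3.04 in the overexpression control, 3.47, 3.14 and 3.48 in knockout cells, and 3.79, 4.02 and 3.82 in wild-type cells. It fell by 0.16 in the knockout (adjusted p = 0.0104) and rose by 0.38 with Setdb1 overexpression (adjusted p = 5.81e-05). Arhgap31, a GTPase-activating protein for Rac1 and Cdc42, took the same course, with a fall of 0.22 and a rise of 0.17 (adjusted p = 0.000371 and 0.00208). Ptpn12, the phosphatase PTP-PEST, whose substrates include p130Cas, fell by 0.27 with Setdb1 overexpression (adjusted p = 0.000131). Its fall of 0.10 in the knockout (adjusted p = 0.0384) came from overlapping libraries and was lost in 4 of 6 fits that left out 1 library of either group. Cpne3, a calcium-dependent phospholipid-binding copine, rose by 0.23 in the knockout (adjusted p = 0.00013).

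The remaining 10 genes carry the focal adhesion term but are known mainly for other work, and 6 rose and 1 fell in the knockout, while 5 rose and 4 fell with Setdb1 overexpression, beside 77.3% and 67.9% of all tested genes called. Arl14ep, the gene of an ARL14 effector protein that is also known to bind SETDB1, had 11.4, 11.2 and 10.4 FPKM in Setdb1-overexpressing cells, 19.1, 17.7 and 19.3 in the overexpression control, 20.5, 19.9 and 18.5 in knockout cells, and 20.2, 21.2 and 20.5 in wild-type cells. The 3 Setdb1-overexpressing libraries lay far below the 9 others. Its fall by 0.71 (SE 0.05, adjusted p = 5.68e-07) was the largest among the 48 genes with Setdb1 overexpression on that scale, and it was not called in the knockout (-0.07, adjusted p = 0.21). Keap1, the adaptor that targets the oxidative stress factor NRF2 for degradation, had 11.4, 10.4 and 12.1 FPKM in Setdb1-overexpressing cells, 8.11, 8.08 and 7.65 in the overexpression control, 8.77, 8.28 and 8.49 in knockout cells, and 7.70, 7.29 and 7.14 in wild-type cells. It rose by 0.46 with Setdb1 overexpression (adjusted p = 1.75e-05) and by 0.18 in the knockout (adjusted p = 0.00587).

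Klf11, a Krüppel-like transcription factor, averaged 8.10 ± 0.0948 FPKM in Setdb1-overexpressing cells, 10.6 ± 0.341 in the overexpression control, 10.1 ± 0.36 in knockout cells and 8.82 ± 0.346 in wild-type cells (SD, n = 3 each). It rose by 0.17 in the knockout (adjusted p = 0.00129) and fell by 0.35 with Setdb1 overexpression (adjusted p = 1.19e-05). Dcaf6, a substrate receptor of the CUL4 ubiquitin ligase, rose by 0.40 in the knockout (adjusted p = 2.24e-06). Armc5, a substrate adaptor of the CUL3 ubiquitin ligase, rose by 0.34 and 0.22, and Tada1, a subunit of the SAGA transcription coactivator, by 0.19 and 0.28, in the knockout and with Setdb1 overexpression. Prune1, a phosphatase, fell by 0.26 in the knockout and by 0.16 with Setdb1 overexpression. The SUMO protease gene Senp1 and Srp68 passed the test with Setdb1 overexpression alone, by 0.28 and 0.13. Ubox5, a ubiquitin ligase, rose by 0.20 in the knockout from overlapping libraries (adjusted p = 0.0341), a call lost in 2 of 6 fits that left out 1 library of either group, and fell by 0.25 with Setdb1 overexpression (adjusted p = 0.0128).

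**Figure D4:**
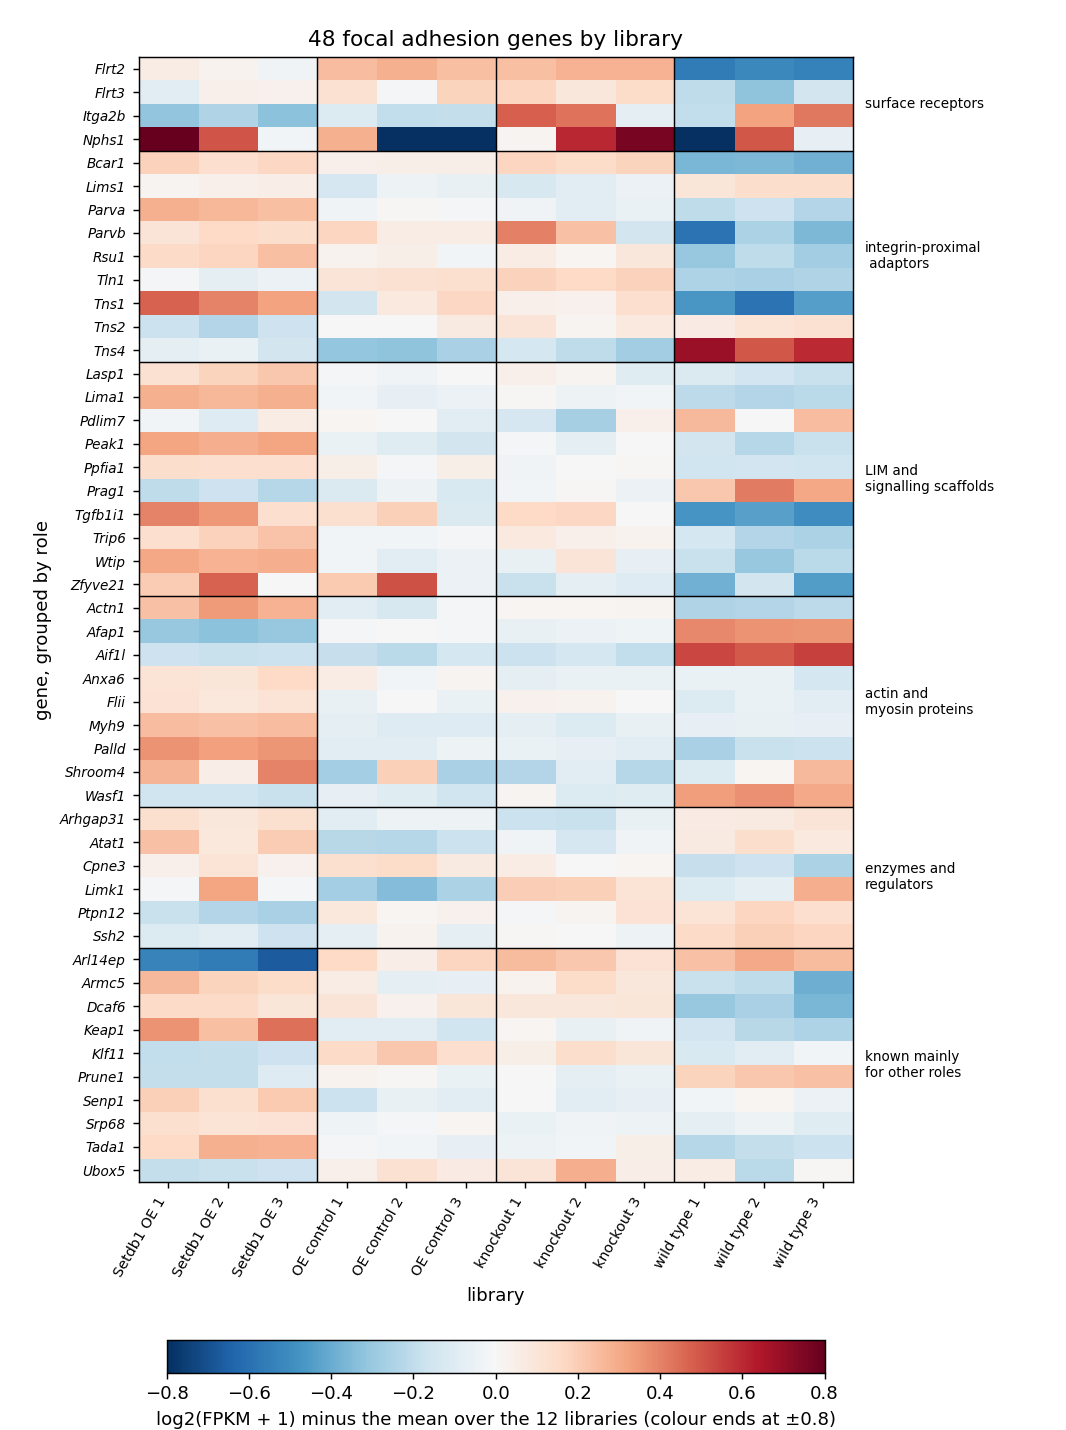
Level of each of the 48 focal adhesion genes in each of the 12 libraries, as log2(FPKM + 1) minus the gene's mean over the libraries, grouped by role (rows) and group (columns); the colour ends at ±0.8. Actn1, Parva, Tns1 and the scaffolds Lima1, Peak1 and Trip6 are lowest in wild type and highest with Setdb1 overexpression, Aif1l, Wasf1, Afap1 and Tns4 are highest in wild type, and Arl14ep is lowest with Setdb1 overexpression.

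Without the 4 libraries with blood transcripts, 1 knockout and 1 wild-type library remained, with the spread taken from the other groups and larger standard errors for most genes. In that fit 18 of the 48 genes rose and 6 fell in knockout over wild type, while 25.8% of all tested genes rose and 28.8% fell. Some lost calls kept a log2 fold change of about the same size: Peak1 was at 0.15 in place of 0.16 (adjusted p = 0.0848), Ssh2 at -0.20 in place of -0.18 (0.078), Tgfb1i1 at 0.48 in place of 0.58 (0.0613), Armc5 at 0.26 in place of 0.34 (0.054) and Pdlim7 at -0.22 in place of -0.29 (0.0727). Lims1, at -0.15 in place of -0.21 (adjusted p = 0.0567), and Keap1, at 0.13 in place of 0.18 (0.301), moved further. The value itself fell by over 1.5 times in Lasp1 and Wtip, in Arhgap31 (-0.13 in place of -0.22, adjusted p = 0.119), in Atat1 (-0.10 in place of -0.16, 0.369) and in Trip6, which kept its call (0.17 in place of 0.26, 0.0237). Ptpn12 (adjusted p = 0.934) and Ubox5 (0.979) came out near 0. Among the libraries with blood transcripts alone, 2 of each group, 25 rose and 12 fell in knockout over wild type, beside 34.9% risen and 36.5% fallen of all tested genes. In the control over the knockout, Bcar1 was at -0.14 in place of -0.12 (adjusted p = 0.0976) and Limk1 at -0.40 in place of -0.46 (0.254) with 1 knockout library left, and neither was called. With Setdb1 overexpression over its control, where no such library was in either group, 25 rose and 10 fell, beside 35.6% and 31.5% of all tested genes. The calls of Nphs1 (adjusted p = 0.06), Shroom4 (0.077) and Tgfb1i1 (0.0939) were lost on the same values, and a fall of Itga2b was gained (0.0437).

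Other terms that the 48 genes carried more often than the rest of the table included several of the cytoskeleton. The term for actin binding was carried by 17 of them (35.4%), against 1.50% of the 1465 other tested genes with a usable annotation, and the term for cell junction by 25 (52.1%) against 2.66%. The term for stress fibre, the contractile actin bundle, was carried by 7 (14.6%) against 0.41%. The longest transcript per gene in the GENCODE M21 annotation had a median length of 3906 bases over the 48 genes and 3581 bases over the tested genes, with a median GC content of 52.6% and 50.1%.

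Other genes of the pathway, from lists of matrix ligands and of targets and partners of serum response factor and YAP, moved as follows. Their counts stand against 37.8% risen and 39.5% fallen in the knockout, 3.64% and 5.04% in the overexpression control, and 36.1% and 31.8% with Setdb1 overexpression among all tested genes. Ccn1 and Ccn2 are in both lists. Of 23 tested matrix genes, 12 rose and 10 fell in the knockout, 0 rose and 2 fell in the overexpression control over the knockout in limma (3 higher and 2 lower at an unadjusted p under 0.05), and 11 rose and 5 fell with Setdb1 overexpression. The nidogens, which join laminin to collagen IV in basement membranes, split in the knockout: Nid1 fell by 1.44, at 0.378 ± 0.0325 FPKM in knockout cells and 2.73 ± 0.0649 FPKM in wild-type cells, and Nid2 rose by 0.80, at 2.47 ± 0.131 FPKM and 0.990 ± 0.0244 FPKM in the same groups (SD, n = 3 each). Nid1 and Ccn3, another of the 10 falls, reached 1 FPKM in the wild-type libraries alone. A fall of either was thus in part fixed by the filter. Nid2 passed the filter mainly through knockout-derived libraries, which in part favoured a rise. Col12a1, a fibril-associated collagen, rose by 0.92 and Thbs3, a thrombospondin, fell by 0.90. With Setdb1 overexpression Emilin1 rose by 0.41 and Fbln1 by 0.38, while Fbln5 fell by 0.33. All 3 encode proteins of elastic fibres.

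The list of targets and partners of serum response factor and YAP had 19 tested genes outside the 48. Among them are Tead1, Tead2 and Tead4, which encode partners of YAP. In the knockout 11 of the 19 rose and 2 fell. In the overexpression control over the knockout 0 rose and 4 fell in limma. At an unadjusted p under 0.05, 1 was higher and 6 were lower there, against 10.7% and 13.8% of all tested genes. With Setdb1 overexpression 10 rose and 4 fell. Ccn2, a matricellular protein and YAP target, averaged 190.1 ± 1.17 FPKM in Setdb1-overexpressing cells, 122 ± 1.73 in the overexpression control, 136 ± 2.53 in knockout cells and 102 ± 0.964 in wild-type cells (SD, n = 3 each), and passed the test in all 3 comparisons. Its relative Ccn1 fell by 0.32 in the control over the knockout, and Actb, cytoplasmic beta-actin, by 0.41, and Cnn2, a calponin, by 0.17. Fhl1, a LIM-only protein, rose by 0.88 in the knockout and Csrp2, another LIM protein, by 0.55, and Csrp2 rose by 0.75 with Setdb1 overexpression, as did Actb by 0.69. Amotl2, an angiomotin that restrains YAP, rose by 0.65 and Tead4 fell by 0.58 in the knockout. Ankrd1, a YAP target and the other gene of the list that fell there, did so by 0.49 from overlapping libraries (adjusted p = 0.0138). Vcl, vinculin, rose by 0.69 with Setdb1 overexpression (adjusted p = 0.00309), at 46.8, 63.3 and 47.2 FPKM against 28.6, 39.4 and 28.5 FPKM in the control, where the groups did not overlap. The largest change in this list was the fall of Gadd45a by 1.70 with Setdb1 overexpression, a growth arrest and DNA damage gene also known as a p53 target.

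Of the 33 genes with the submitters' focal adhesion term but without a usable annotation, 28 were tested. Among them 13 rose and 8 fell in the knockout, beside 37.8% risen and 39.5% fallen among all tested genes. The rises include Tek, which was under 1 FPKM in every wild-type library, so the filter in part favoured its rise. In the overexpression control over the knockout 0 rose and 5 fell in limma, beside 3.64% and 5.04%. At an unadjusted p under 0.05, 1 was higher and 6 were lower there, against 10.7% and 13.8%. With Setdb1 overexpression 17 rose and 5 fell, beside 36.1% and 31.8%. The median log2 fold changes were 0.04, -0.03 and 0.20 in the same order, against -0.01, 0.00 and 0.02 over all tested genes. Actb, Actg1, Ajuba, Vcl and Dlc1 are also in the list of targets and partners of serum response factor and YAP, so these sets overlap.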

How the data were processed

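The authors deposited 1 table of FPKM values for 2281 genes with 1 column per library, with p-values and q-values of a comparison the column names do not give. In the authors' deposited table the highest q was 0.113, and 7 of the 48 genes had a q above 0.05. The tools named, per the submitters' processing notes, are cutadapt, HISAT2, StringTie, edgeR and DESeq2, without roles or versions. No build or annotation is given in the sources used here. All counts of called genes describe this preselected table, for which the design, written for a whole transcriptome, was kept. The table's 622 genes without a usable annotation entry could not be members.

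Values were tested as log2(FPKM + 1) with limma-trend (limma 3.58.1, R 4.3.3), 1 mean per group over 12 libraries, two-sided, with Benjamini-Hochberg adjustment over the 2063 genes at 1 FPKM or more in at least 3 libraries. The model was tested on simulated data. Members and lists were chosen with earlier results of these data known. Genes were named by rule: Actn1, called genes of the receptor and adaptor lists, the 8 largest rises and falls per comparison, the 5 most abundant genes and the 4 largest changes per outside list. This named 38 of the 48 genes. The other 10, Fbln5 and Ccn3 of the matrix list, Ankrd1, and Tek of the submitters' term were described after their values were seen. Groups come from the labels and promoters from RefSeq. Alternatives were another scaling, quantile normalization, no filter, a pseudocount of 0.1, the 2 groups alone, a replicate block, each library left out, and 3 treatments of the libraries with blood transcripts that were chosen after seeing the data.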

Additional observations from a re-analysis of the deposited data

How the results depend on the processing

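Counts of focal adhesion genes called in knockout over wild type and in Setdb1 overexpression over its control stayed within 1.5 times their values under another scaling, quantile normalization, no filter, a pseudocount of 0.1, the 2 groups alone and a replicate block. Without the 4 libraries with blood transcripts, a choice made after seeing the data, 6 genes fell in knockout over wild type in place of 12, and 0 in place of 2 in the overexpression control over the knockout. In that fit 2 knockout calls changed sign, Ptpn12 to 0.0067 (adjusted p = 0.934) and Ubox5 to -0.0025 (adjusted p = 0.979). A model term for those libraries left 1 fall in the control over the knockout.

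When each library was left out in turn, 24 to 26 genes rose and 11 to 12 fell in knockout over wild type, 0 rose and 1 to 2 fell in the control over the knockout, and 25 to 27 rose and 9 fell with Setdb1 overexpression. Among all tested genes the shares risen and fallen were 36.0% to 36.8% and 37.8% to 38.4% in knockout over wild type. They were 1.65% to 2.38% and 2.76% to 3.83% in the control over the knockout, and 33.3% to 34.0% and 29.8% to 30.5% with Setdb1 overexpression. Libraries of the same number did not deviate together: correlations of their deviations from the group means ran from -0.70 to 0.41 in knockout and wild type, from -0.04 to 0.01 in the control and knockout, and from -0.04 to -0.01 in Setdb1 overexpression and its control, and 1, 2 and 0 of the 6 libraries correlated best with their own number. With the replicate block 24 genes rose and 11 fell in knockout over wild type, 0 rose and 1 fell in the control over the knockout, and 26 rose and 9 fell with Setdb1 overexpression. The shares of all tested genes were 37.7% risen and 39.2% fallen, 2.52% and 3.59%, and 35.5% and 31.8% in the same order. Ptpn12 (adjusted p = 0.0646), Ubox5 (0.0595), Limk1 (0.0615), Nphs1 (0.0762) and Shroom4 (0.0579) lost a call. In the control over the knockout, Bcar1 alone was called without knockout 1, knockout 2 or control 2, while Itga2b (adjusted p = 0.0402 without knockout 3), Nphs1 (0.0444 without control 1) and Actn1 (0.0445 without control 3) were each called beside Bcar1. The causes were not tested. Depth is unknown, and 3 libraries per group limit the precision.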
